A study of Mus musculus with 6 samples.

Results

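The genes described here are the 39 members of the unfolded protein response and the integrated stress response, a list of names grouped by the known roles of the genes. The list was drawn up with earlier results of these data known, although no measured value decides membership. They were 39 of 29374 genes with any estimated read, and all 39 were among the 16656 genes tested. The list has 4 roles: 15 chaperones and folding factors of the endoplasmic reticulum (ER), 6 sensors, kinases and transcription factors, 12 targets of the transcription factor Atf4, and 6 genes of ER-associated degradation (ERAD) and protein translocation. RNA was sequenced from leukemic mouse spleen cells that carry CD11b and Gr1, surface antigens of myeloid cells, sorted by flow cytometry from tumor-bearing animals. All 6 libraries carried Mll-AF9, a fusion oncogene knocked into its own locus that drives acute myeloid leukemia. The groups were 3 libraries with intact Rpl22 (Rpl22+/+) and 3 with germline deletion of Rpl22 (Rpl22-/-), a gene for a large ribosomal subunit protein. No further agent is named for either group, and ages are not given in the labels. Whether libraries of 1 genotype were made from different animals is not stated in the labels. The study's text names a mouse for each genotype beside these leukemias, so p-values measure the spread between libraries. If each genotype came from 1 animal, a difference by genotype cannot be told apart from a difference between individual leukemias.

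The unfolded protein response is switched on when unfolded proteins accumulate in the ER. Its sensors are Ern1 (Ire1), which splices the Xbp1 mRNA into its active form, Atf6, which is cut into a transcription factor, and Eif2ak3 (Perk), a kinase. Atf6 and spliced Xbp1 are known to raise the genes of ER chaperones, the secretory translocon and ERAD. Eif2ak3 and the other kinases of the initiation factor eIF2, among them Eif2ak4 (Gcn2), slow translation in general while allowing translation of Atf4, and this shared branch is the integrated stress response. Atf4 is known to raise genes of amino acid synthesis and import and of stress signalling. Myeloid progenitors make large amounts of granule proteins that pass through the ER. Splicing, cleavage and phosphorylation, through which the sensors act, cannot be read from RNA levels per gene, and the spliced form of Xbp1 was not analysed here.

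The sequences below are shown because some chaperone genes held an element that no Atf4 target searched held, and the other way round. All come from genes with a match, and the genotype comparison did not use these letters. The ER stress response element (ERSE), where Atf6 and Xbp1 are known to act, was searched as CCAAT and CCACG separated by 9 bases of any kind. The C/EBP-ATF response element (CARE), where Atf4 is known to act, was searched as TGATGNAA. Both strands were searched, from 250 bases before to 50 bases after each gene start in RefSeq (build GRCm38.p6), and 34 of the 39 members had such a window. Among 13 chaperones with a window, 7 held an ERSE (Calr, Canx, Creld2, Dnajc3, Hsp90b1, Hspa5 and Pdia6), against 0.119% of all 32851 windows. None of 11 Atf4 targets held one, and among 5 ERAD and translocation genes Syvn1 did. A CARE was found in 5 of the 11 Atf4 targets (Asns, Chac1, Nupr1, Slc7a11 and Trib3), in Herpud1 and in 0 of 13 chaperones, against 3.97% of all windows. The related ERSE-II (ATTGG, any base, CCACG) was found in Dnajb11 and Herpud1 and in 0.0365% of all windows. An XBP1 core site, TGACGTGG, was in no member's window and in 0.676% of all windows. The members were listed for their known regulation, so these counts describe the list, and a match alone does not make a site. Each stretch below reads 5′ to 3′ on the gene's own strand, ends before the gene start, and carries its matches in capitals. Capitals that read CGTGG first, TTGCATCA or the like are matches on the opposite strand.
Hspa5, with 1 ERSE, at chr2:34772005-34772063, plus strand: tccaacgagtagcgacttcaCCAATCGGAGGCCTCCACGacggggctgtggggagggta
Calr, with 1 ERSE, at chr8:84847055-84847113, minus strand: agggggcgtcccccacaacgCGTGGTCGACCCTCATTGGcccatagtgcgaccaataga
Canx, with 1 ERSE, at chr11:50325780-50325838, minus strand: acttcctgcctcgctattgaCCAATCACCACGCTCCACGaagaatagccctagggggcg
Creld2, with 1 ERSE, at chr15:88819500-88819558, plus strand: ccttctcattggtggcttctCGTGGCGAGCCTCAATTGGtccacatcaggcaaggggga
Hsp90b1, with an ERSE on each strand, at chr10:86705513-86705676, minus strand: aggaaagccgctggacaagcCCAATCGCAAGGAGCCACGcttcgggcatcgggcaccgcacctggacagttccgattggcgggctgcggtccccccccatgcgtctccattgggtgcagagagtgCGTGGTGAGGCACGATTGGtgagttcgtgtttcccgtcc
Herpud1, with a CARE and an ERSE-II, at chr8:94386297-94386407, plus strand: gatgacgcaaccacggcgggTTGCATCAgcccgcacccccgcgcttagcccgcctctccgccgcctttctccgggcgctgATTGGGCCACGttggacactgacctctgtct
Asns, with 1 CARE, at chr6:7693210-7693252, minus strand: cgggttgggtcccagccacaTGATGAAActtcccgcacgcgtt
Slc7a11, with a CARE on each strand, at chr3:50443633-50443699, minus strand: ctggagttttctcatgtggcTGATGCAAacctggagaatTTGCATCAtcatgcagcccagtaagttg
Chac1, with 1 CARE, at chr2:119351029-119351076, plus strand: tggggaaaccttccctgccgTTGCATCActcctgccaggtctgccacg

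The shallowest library was Rpl22-/- replicate 1, with 35828500 estimated reads, and the deepest was Rpl22-/- replicate 3, with 102866127. Levels are CPM, reads relative to the TMM-scaled library total, and levels of single genes are set against each other only in TPM, which is also scaled for transcript length. List means of log2 CPM are compared between libraries. Rpl22 itself was lower in the Rpl22-/- libraries (58.3, 89.9 and 73.5 CPM) than in the Rpl22+/+ libraries (148, 235 and 152 CPM), which is a log2 fold change equal to -1.27 ± 0.25 (SE, n = 3 per group; adjusted p = 0.0106). The Rpl22-/- libraries thus kept 0.414 of the Rpl22+/+ level, and which part of the gene these reads come from was not examined. Over genes that averaged 50 counts or more, the first principal component (66.0% of the variance) separated the genotypes and the second (25.9%) set Rpl22+/+ replicate 2 apart. Fewer cells of a type and less RNA per cell cannot be told apart in these bulk libraries. Itgam, which encodes CD11b, was abundant in every library but lower in Rpl22-/- (815 to 1036 CPM) than in Rpl22+/+ (1838 to 2085 CPM). Ly6g, which encodes an antigen that Gr1 antibodies bind, was at 11.1 to 15.7 CPM against 149 to 178 CPM. S100a9, the highest of the 12 myeloid markers listed, was at 12911 to 16662 CPM and 18723 to 22024 CPM. Granule protease and peroxidase genes, which are cargo of the ER, went the other way, and Mpo, Elane, Prtn3 and Ctsg were called higher by 2.86 to 3.48 log2 units.

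In Rpl22-/- libraries 10 of the 15 ER chaperone genes rose, where 13.7% of all genes did, and the sensor genes Atf6 and Eif2ak3 fell. Atf4 targets went both ways, with 3 of 12 higher and 2 lower, beside 13.7% and 13.8% of all genes. The 10 chaperones became 5 without Rpl22+/+ replicate 1 and 4 without replicate 3, and the 3 Atf4 targets became 0 in both fits. A gene was called with an adjusted p under 0.05 in edgeR's quasi-likelihood test and a change over 2-fold. Among the 39 members, 6 were called higher (Manf, Hyou1, Calr, Sdf2l1, Sec61b and Ddit4), where 8.93% of all genes tested were. Without Rpl22+/+ replicate 1 or 3 the 6 became 2, Manf and Hyou1, and with no composition factor 11. Another 2, Asns and Slc7a11, were called lower, where 8.54% of all genes were. Passing the adjusted p at any size were 15 members on the higher side and 4 on the lower side, with 13.7% and 13.8% of all genes as the background. In 21 members every Rpl22-/- library lay above every Rpl22+/+ library, and in 6 every one lay below, against 23.9% and 22.2% of all genes. The median log2 fold change was 0.42 over the members and 0.07 over all genes tested.

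**Figure D1:**
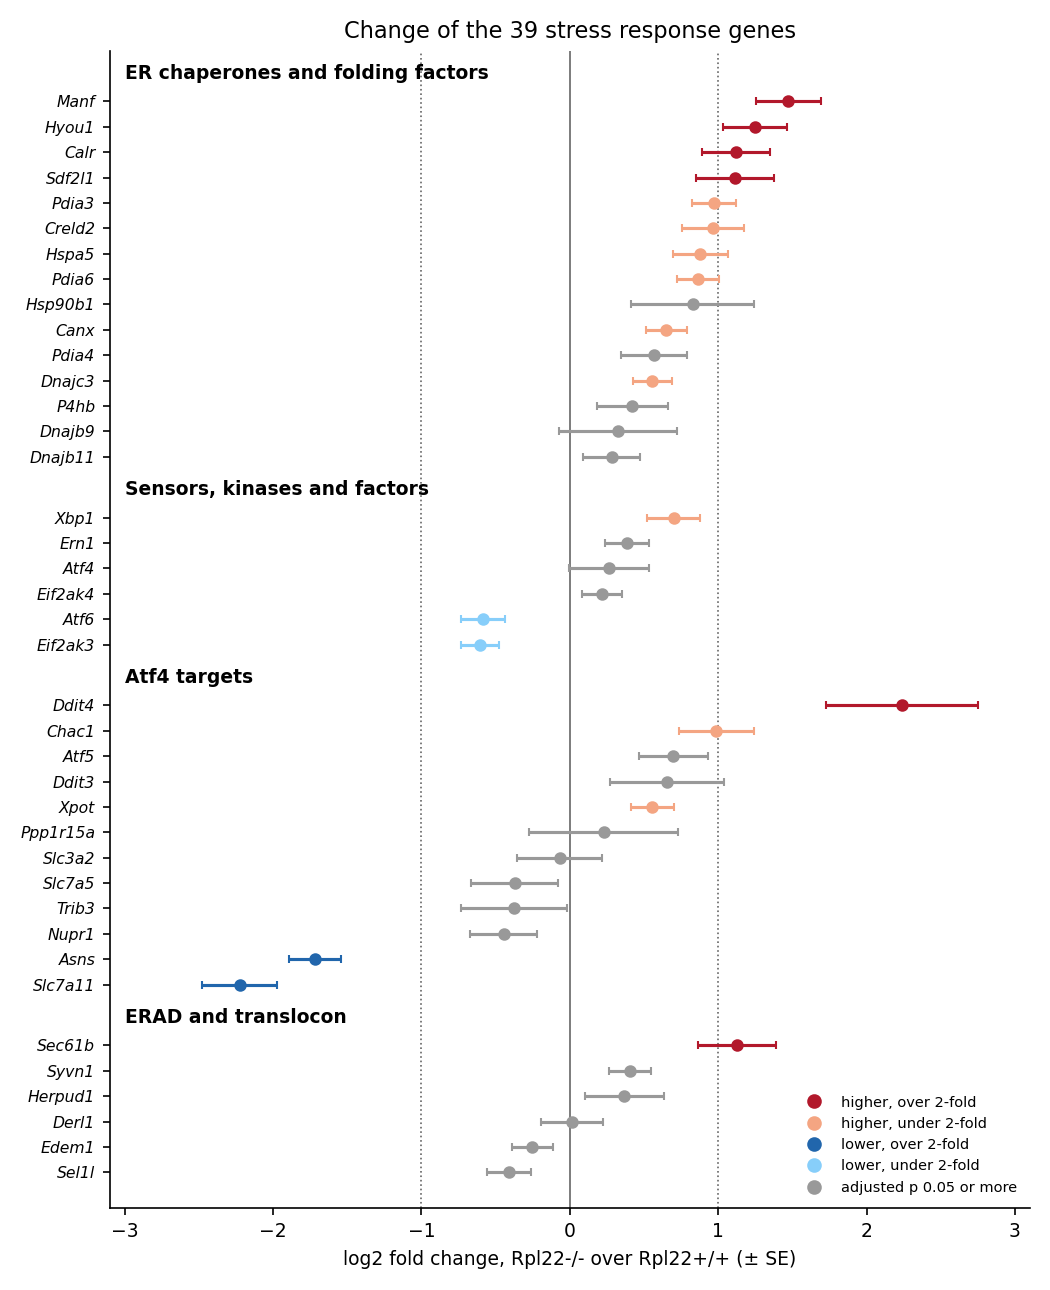
The log2 fold change (Rpl22-/- over Rpl22+/+) of each of the 39 genes on the x axis, with bars for the SE and genes grouped by role, and colour for the outcome of edgeR's test. All 15 chaperones lie right of 0, while Atf4 targets run from Slc7a11 at -2.23 to Ddit4 at 2.24.

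All 15 chaperones had a positive log2 fold change, with a median of 0.87. Of these, 4 were called higher, 6 more passed the adjusted p below 2-fold, and 5 did not pass, where over all genes 8.93% were called higher, 13.7% passed higher and 54.2% were positive. In 12 of the 15 every Rpl22-/- library was the higher, against 23.9% of all genes. The number that passed depended on single libraries, at 5 without Rpl22+/+ replicate 1, 4 without replicate 3 and 14 without replicate 2, the library that stands apart, and at 8 without any 1 of the Rpl22-/- libraries. Summed over the 15 genes, TPM was 2480, 2337 and 2499 in Rpl22+/+ and 5025, 4971 and 4921 in Rpl22-/-, that is 2438 ± 88.6 against 4972 ± 52.1 (SD, n = 3). Every Rpl22-/- sum was above every Rpl22+/+ sum. Rpl22+/+ replicate 2 had the lowest sum of all but the highest chaperone mean of log2 CPM in its genotype (7.62, against 7.34 and 7.38), and its single genes went both ways. There Hsp90b1 was at 72.3 TPM against 321 and 289 TPM, while Calr was at 597 TPM against 503 and 514 TPM, so the near-equal Rpl22+/+ sums do not mean that single genes were steady.

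Manf, a secreted protein of the ER lumen that is known to be induced by ER stress, had the largest change among the chaperones. It lies on chromosome 9 (106715511 to 106769178, minus strand, GRCm39). It was at 80.9, 128 and 84.1 CPM in Rpl22+/+ and at 247, 310 and 255 CPM in Rpl22-/-. Every Rpl22-/- library was above every Rpl22+/+ library, and the log2 fold change was 1.47 ± 0.22 (SE; adjusted p = 0.00385). Hyou1 encodes a large Hsp70-like chaperone that serves as an exchange factor of Hspa5, and it also lies on chromosome 9 (44290787 to 44303666, plus strand). Its level was 202, 316 and 204 CPM in Rpl22+/+ and 570, 626 and 520 CPM in Rpl22-/-. The groups stood apart, with a log2 fold change of 1.25 ± 0.22 (adjusted p = 0.00675). Genes of chromosome 9 as a whole lay at a median log2 fold change of 0.34 (659 genes that averaged 50 counts or more), against 0.05 over all such genes, and what part of this reaches Manf and Hyou1 was not tested.

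Calr (calreticulin) is a calcium-binding lectin chaperone that holds glycoproteins while they fold, and at a median of 882 TPM it was the most abundant member. It lies on chromosome 8 (85568479 to 85573563, minus strand), and its upstream stretch above holds an ERSE. Calr measured 659, 1078 and 690 CPM in Rpl22+/+ and 1722, 1938 and 1621 CPM in Rpl22-/-. The highest Rpl22+/+ library, replicate 2, stayed below all Rpl22-/- libraries, and the log2 fold change was 1.12 ± 0.23 (adjusted p = 0.0130). Sdf2l1, a partner of ER-luminal DnaJ proteins, lies on chromosome 16 (16948002 to 16950247, minus strand). Its CPM values were 56.5, 104 and 58.5 in Rpl22+/+ against 152, 178 and 142 in Rpl22-/-. Here too replicate 2 was the highest of both genotypes without closing the gap (log2 fold change 1.11 ± 0.26; adjusted p = 0.0218). The calls of Calr and Sdf2l1 were lost when Rpl22+/+ replicate 1 or 3 was left out, with adjusted p up to 0.0631 for Calr, and that of Sdf2l1 also without Rpl22-/- replicate 1 or 3 (up to 0.0859).

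Hspa5 (BiP), the Hsp70 chaperone of the ER lumen that binds the sensors at rest, rose by less than 2-fold. It measured 621, 614 and 702 CPM in Rpl22+/+ and 937, 1245 and 1383 CPM in Rpl22-/-. All Rpl22-/- libraries were above the Rpl22+/+ libraries but they spread more, and the log2 fold change was 0.88 ± 0.19 (adjusted p = 0.0146, and up to 0.0610 when 1 library was left out, Rpl22+/+ replicate 1 or 3 or Rpl22-/- replicate 2 or 3). Pdia3, the disulfide isomerase that works with Calr and Canx, rose by 0.97 log2 units (adjusted p = 0.00413), from 410 to 453 CPM up to 742 to 931 CPM. Canx (calnexin), the membrane-bound relative of Calr, rose by 0.65. Creld2, a folding factor known as an ER stress marker, rose by 0.96, and Dnajc3, a co-chaperone of Hspa5 also known to restrain Eif2ak3, by 0.56. With a correction for GC content, Canx (0.51; adjusted p = 0.222) and Dnajc3 (0.49; 0.101) no longer passed, while with the replicate block added to it both did (adjusted p = 0.0134 and 0.00593). Pdia6, another isomerase, rose by 0.87 in the transcripts that could be matched. Its gene sum here held 0.150 of the authors' mean level, so its main transcripts were outside the match, whereas the ratio was 0.862 for Xbp1 and 0.94 to 0.99 for the other members.

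The other 5 chaperones did not pass in the fit without a replicate block. Hsp90b1 (Grp94), the Hsp90 of the ER, measured 621, 190 and 574 CPM in Rpl22+/+ and 889, 761 and 808 CPM in Rpl22-/-. Its genotypes did not overlap, but Rpl22+/+ replicate 2 lay far below its group and the log2 fold change of 0.83 ± 0.42 had an adjusted p of 0.195. Without that library it was 0.41 with an adjusted p of 0.0314. Pdia4 was higher in every Rpl22-/- library (log2 fold change 0.57; adjusted p = 0.110, and 0.0222 with the replicate block). The genotypes overlapped in P4hb (0.42), Dnajb11 (0.28) and Dnajb9 (0.33). With the replicate block and a GC correction together, 14 of the 15 chaperones passed, all but Dnajb9. In the reported fit, all of the 7 chaperones with an ERSE passed except Hsp90b1. Of those with a window and no exact ERSE, Pdia3 and Sdf2l1 passed, and Pdia4, P4hb, Dnajb9 and Dnajb11 did not. Manf and Hyou1, which had no window, passed. Whether the motif goes with the change was not tested.

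**Figure D2:**
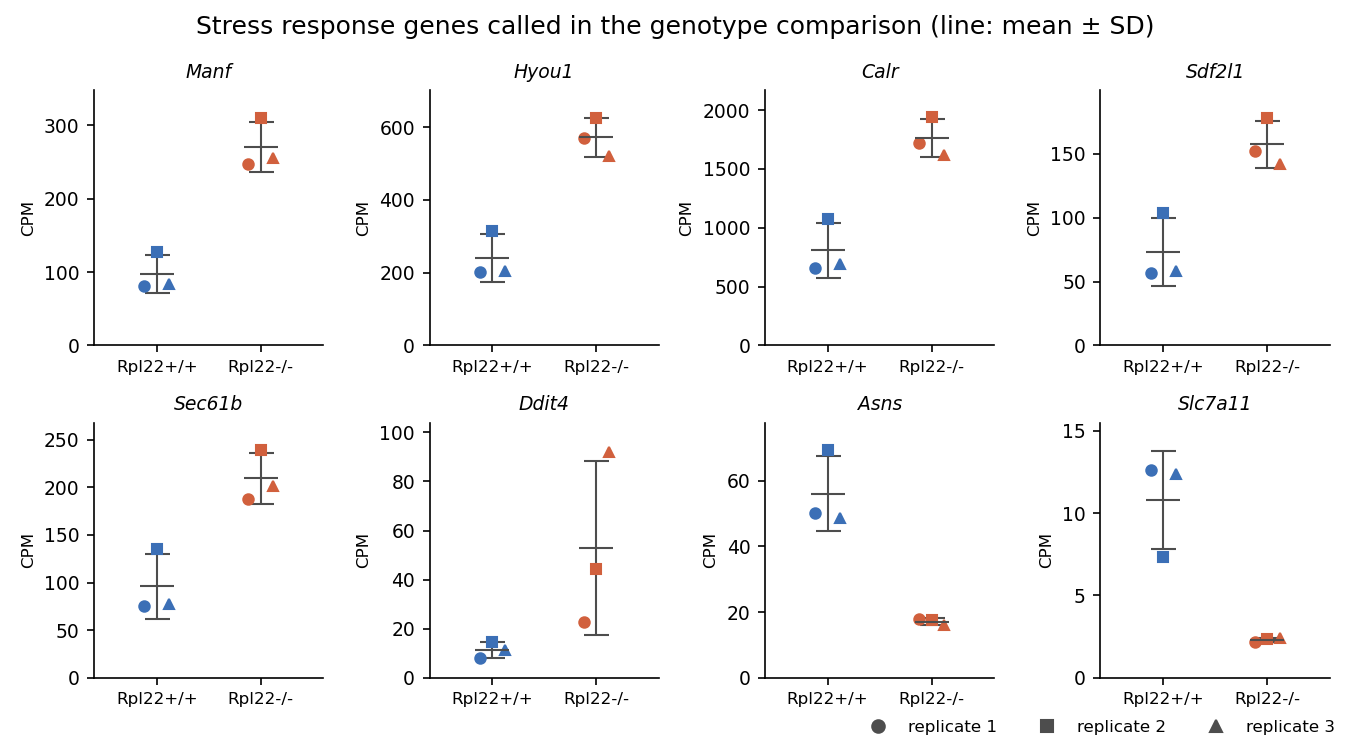
CPM (y axis, from 0) in each library of the 8 called genes, with symbols for the replicate number and lines for the mean and SD of 3 libraries per genotype. The genotypes do not overlap in any of the 8, and Ddit4 differs from the others in the wide spread of its Rpl22-/- libraries, 22.8 to 92.0 CPM.

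The sensors and factors upstream of these genes did not move together. Atf6 fell, from 109, 138 and 119 CPM in Rpl22+/+ to 74.3, 90.0 and 80.1 CPM in Rpl22-/-. No Rpl22-/- library reached the lowest Rpl22+/+ library, and the log2 fold change was -0.59 ± 0.15 (adjusted p = 0.0271). Eif2ak3 fell from 76.0, 89.9 and 79.0 CPM to 52.8, 56.7 and 51.3 CPM. Its groups were as clearly apart, with a log2 fold change of -0.61 ± 0.13 (adjusted p = 0.0140). Xbp1, which encodes the factor that Ern1 activates, rose, from 154, 227 and 165 CPM to 297, 305 and 285 CPM. The Rpl22-/- libraries lay close together above the Rpl22+/+ libraries, at a log2 fold change of 0.70 ± 0.18 (adjusted p = 0.0281). Each of these 3 changes stopped passing when certain single libraries were left out. The highest adjusted p was 0.106 for Atf6 and 0.0728 for Eif2ak3, both without Rpl22-/- replicate 3, and 0.121 for Xbp1, without Rpl22+/+ replicate 3.

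Ern1 was at 76.2, 96.3 and 89.0 CPM in Rpl22+/+ and at 126, 106 and 110 CPM in Rpl22-/-. Every Rpl22-/- library was the higher, but the difference of 0.39 ± 0.15 did not pass (adjusted p = 0.097). It passed in 4 of the 18 alternatives, with no composition factor (adjusted p = 0.0167), a GC correction (0.0256), the replicate block with GC correction (0.0301) and without Rpl22+/+ replicate 2 (0.0320). Eif2ak4, the kinase that senses uncharged tRNA, was at 22.8, 18.8 and 20.8 CPM against 25.6, 23.0 and 24.0 CPM. It showed the same order at a smaller size, 0.22 ± 0.14 (adjusted p = 0.289). Atf4 was at 215, 309 and 258 CPM in Rpl22+/+ and at 209, 318 and 412 CPM in Rpl22-/-. The genotypes overlapped, with Rpl22-/- replicates 2 and 3 above and replicate 1 below every Rpl22+/+ library, and the log2 fold change of 0.26 ± 0.27 had an adjusted p of 0.535. Atf4 is controlled mainly at translation, which these libraries do not measure.

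**Figure D3:**
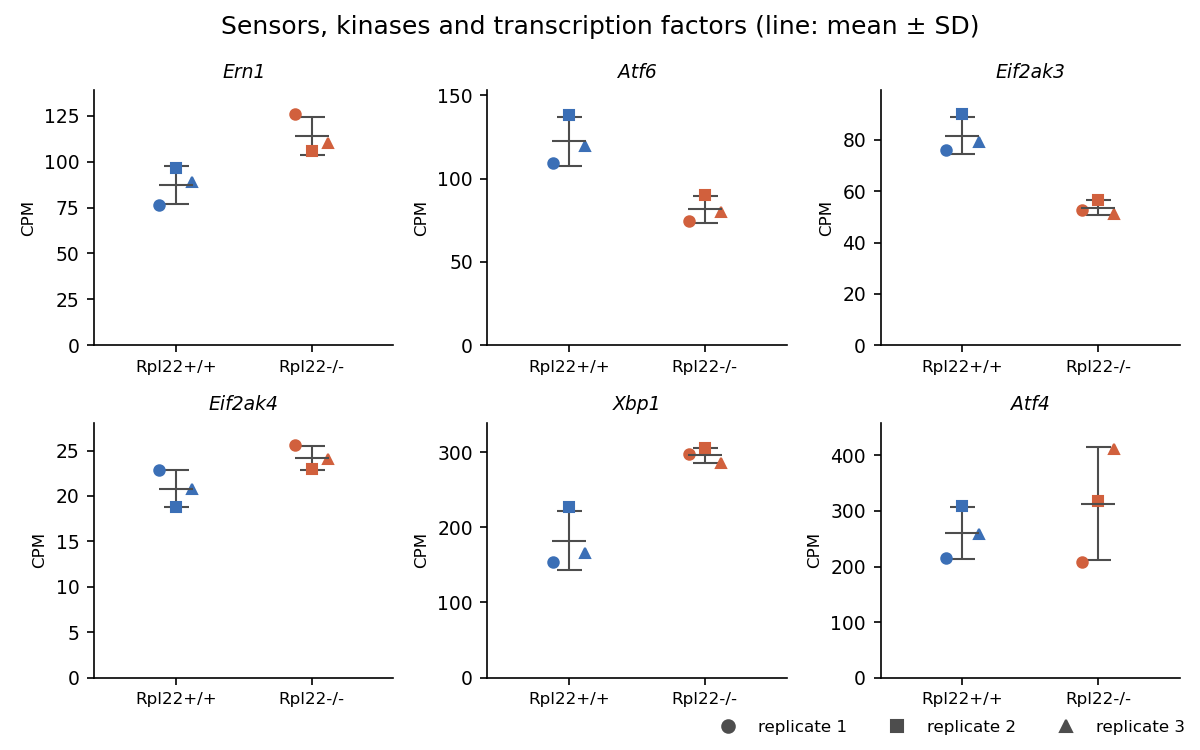
CPM (y axis, from 0) of the 6 sensors, kinases and transcription factors in each library, with symbols for the replicate number and lines for the mean and SD of 3 libraries per genotype. Atf6 and Eif2ak3 are lower and Xbp1 higher in all 3 Rpl22-/- libraries, while the Atf4 values of the genotypes overlap.

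Of the 12 Atf4 targets, 6 had a positive and 6 a negative log2 fold change, where 54.2% of all genes were positive, and their median of 0.08 was close to that of all genes, 0.07. Of the 12, 1 was called higher and 2 lower, beside 8.93% and 8.54% of all genes, so as counts they lie near the background. At any size 3 of the 12 passed on the higher side and 2 on the lower side, beside 13.7% and 13.8% of all genes. The 3 became 0 without Rpl22+/+ replicate 1 or 3 and 1 without Rpl22-/- replicate 3. In each of these fits 2 passed on the lower side. The 2 called lower both serve amino acid supply. Asns (asparagine synthetase, chromosome 6, 7675169 to 7693254, minus strand) was at 50.3, 69.2 and 48.8 CPM in Rpl22+/+ and at 17.8, 17.5 and 15.9 CPM in Rpl22-/-. The Rpl22-/- libraries were nearly equal and all far below, at a log2 fold change of -1.72 ± 0.18 (adjusted p = 0.000896). Slc7a11, the cystine importer known from its role against oxidative damage, lies on chromosome 3 (49846975 to 50398063, minus strand). It fell from 12.6, 7.33 and 12.4 CPM to 2.17, 2.35 and 2.39 CPM. The lowest Rpl22+/+ library was 3.07 times the highest Rpl22-/- library, and the log2 fold change was -2.23 ± 0.25 (adjusted p = 0.00132).

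Both promoters hold CARE matches, in the stretches printed above, as does that of Chac1, which moved the other way. Chac1, an enzyme that breaks down glutathione, rose from 2.01, 2.50 and 2.16 CPM to 3.69, 3.70 and 5.82 CPM, just under 2-fold (log2 fold change 0.99 ± 0.25; adjusted p = 0.0288). Of the other 2 targets with a CARE, Nupr1 was at -0.45 (adjusted p = 0.196) and Trib3, at about 1 CPM in every library, at -0.38 (adjusted p = 0.495). Without Rpl22+/+ replicate 2, Nupr1 passed on the lower side (-0.65; adjusted p = 0.0322). Genes with the motif were found among the risen, the fallen and those that did not pass in the reported fit. Of the targets with a window and no CARE, Ddit4 and Xpot passed, and Atf5, Ddit3, Ppp1r15a and Slc3a2 did not. Whether the motif goes with the change was not tested. Xpot, the exporter of tRNA from the nucleus, rose by 0.56 (adjusted p = 0.0304). Neither Chac1 nor Xpot passed without Rpl22+/+ replicate 1 or 3 or without Rpl22-/- replicate 3. Nor did Xpot without Rpl22-/- replicate 1, and adjusted p was 0.0709 to 0.136 over these fits. Atf5, a transcription factor that acts beside Ddit3, was higher in all Rpl22-/- libraries but did not pass in the reported fit (0.70; adjusted p = 0.0687). It passed in 10 of the 18 alternatives. Among these were DESeq2 (adjusted p = 0.0301), a GC correction (0.00566), the replicate block (0.0221) and the fit without Rpl22+/+ replicate 2 (0.00240). The amino acid transporter subunits Slc3a2 (-0.07) and Slc7a5 (-0.37) overlapped between genotypes.

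Ddit4 (Redd1), an inhibitor of mTORC1 signalling that is also induced by hypoxia and glucocorticoids, was the only Atf4 target called higher. It lies on chromosome 10 (59785491 to 59787656, minus strand). Its levels were 7.96, 14.4 and 11.3 CPM in Rpl22+/+ and 22.8, 44.1 and 92.0 CPM in Rpl22-/-. All Rpl22-/- libraries were above, the highest of them at 4.05 times the lowest, and the log2 fold change was 2.24 ± 0.51 (adjusted p = 0.0194). The call was lost without Rpl22+/+ replicate 1 or 3, with adjusted p up to 0.0700, and without Rpl22-/- replicate 3 the log2 fold change was 1.58 (adjusted p = 0.0417).

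In Ddit4, Rpl22-/- replicate 1 was the lowest and replicate 3 the highest Rpl22-/- library. The same held for 8 of the 12 Atf4 targets, 2 of the 15 chaperones (Hspa5 and Dnajb9) and 12 of all 39 members, against 14.1% of all genes tested. The examples that follow were picked for it after their values were seen. Ppp1r15a (Gadd34), the phosphatase subunit that ends the integrated stress response, was at 92.6, 149 and 106 CPM in Rpl22+/+ and at 49.6, 133 and 225 CPM in Rpl22-/-. Ddit3 (Chop), a transcription factor linked to cell death under stress, was at 8.69, 10.1 and 13.9 CPM against 11.0, 12.6 and 27.7 CPM. Dnajb9, a co-chaperone of Hspa5, was at 52.3, 55.6 and 62.2 CPM against 34.8, 62.9 and 116 CPM. In each of these and in Atf4 the genotypes overlapped. Other members did not have this order, such as Manf and Creld2, which were highest in Rpl22-/- replicate 2. None of these 3 nor Atf4 passed in the reported fit, with adjusted p of 0.787 for Ppp1r15a, 0.263 for Ddit3 and 0.607 for Dnajb9. Ddit3 passed with the replicate block and GC correction together (0.54; adjusted p = 0.0386). Atf3, an early stress factor outside the 39, had the same lowest and highest Rpl22-/- library over a wider range, at 22.4, 74.4 and 67.4 CPM against 1.98, 41.7 and 234 CPM. So did Hspa1a, an inducible heat shock gene of the cytosol, at 15.5, 47.4 and 92.8 CPM against 33.6, 147 and 637 CPM. In Ddit3, Dnajb9 and Hspa1a the Rpl22+/+ libraries had this order too, while in Ddit4, Ppp1r15a, Atf4 and Atf3 they did not. Over all genes the order was not counted in Rpl22+/+. Rpl22-/- replicate 1 was also the shallowest library, and replicate 3 the deepest, and the part of depth in this spread was not tested.

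**Figure D4:**
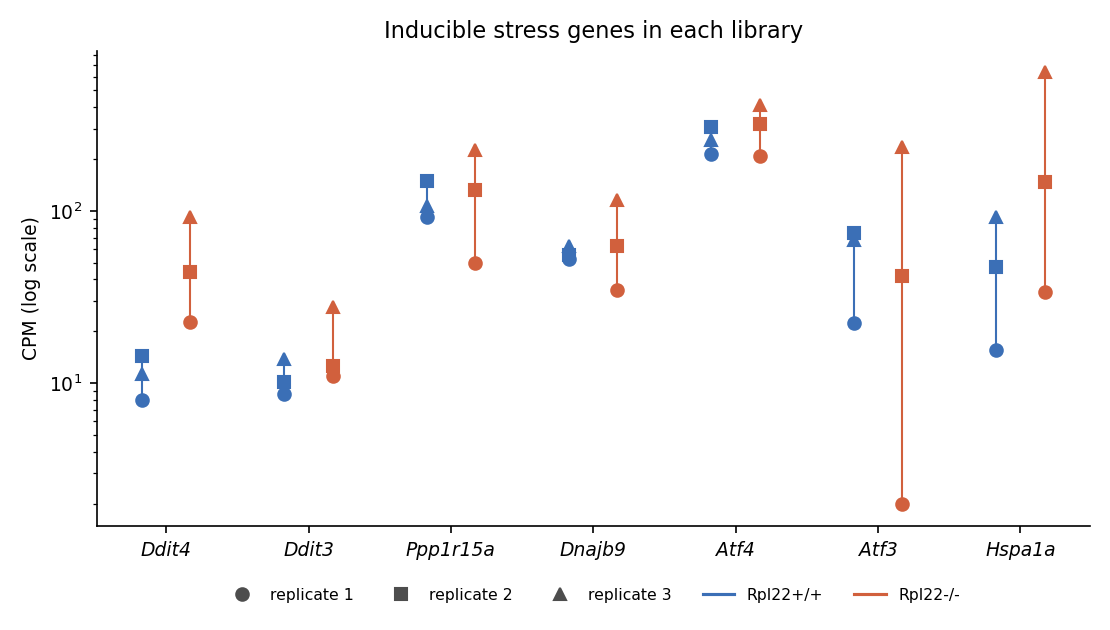
CPM (log scale, y axis) in each library of 7 inducible stress genes picked for the order of their Rpl22-/- libraries, with colour for the genotype, symbols for the replicate number and a line from the lowest to the highest library of a genotype. By that choice replicate 1 is the lowest and replicate 3 the highest Rpl22-/- library in each, and what the plot shows is the range, which for Atf3 is 1.98 to 234 CPM.

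Set against each other in each library, the chaperones and the Atf4 targets separated the genotypes. The mean log2 CPM of the 15 chaperones exceeded that of the 12 Atf4 targets by 3.38, 3.24 and 3.23 in Rpl22+/+ and by 4.40, 4.26 and 3.74 in Rpl22-/-. Every Rpl22-/- library had the larger difference, and within Rpl22-/- it was smallest in replicate 3. That library had a chaperone mean (8.26) between those of the other two (8.18 and 8.40) and the highest Atf4 target mean of all libraries (4.52). In summed TPM the Atf4 targets were at 263, 298 and 290 in Rpl22+/+ and at 244, 307 and 483 in Rpl22-/-, so the genotypes overlapped. These differences are given without a test, since the lists were drawn up with earlier results known.

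**Figure D5:**
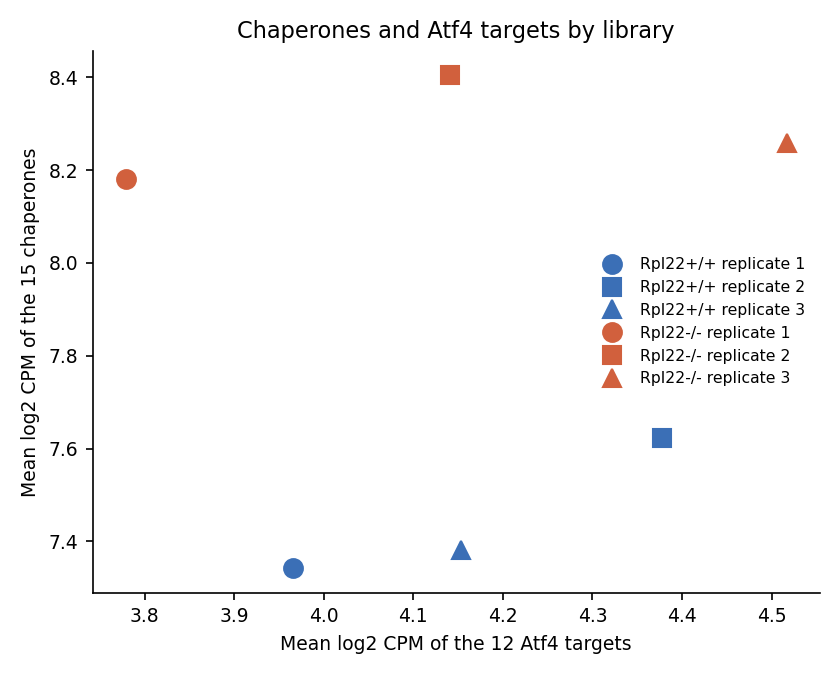
Mean log2 CPM of the 15 chaperones (y axis) against that of the 12 Atf4 targets (x axis), 1 point per library, with colour for the genotype and symbols for the replicate number. The genotypes are separate on the y axis, at 7.34 to 7.62 and 8.18 to 8.40, and overlap on the x axis.

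Of the 6 members in ERAD and translocation, 1 was called, higher, beside 8.93% of all genes. Sec61b encodes a subunit of the channel through which new proteins enter the ER (chromosome 4, 47474658 to 47483242, plus strand). It measured 75.0, 135 and 77.5 CPM in Rpl22+/+ and 188, 239 and 201 CPM in Rpl22-/-, with no overlap and a log2 fold change of 1.13 ± 0.26 (adjusted p = 0.0198). Its call was lost without Rpl22+/+ replicate 1 or 3 or Rpl22-/- replicate 3 (adjusted p up to 0.0799). The 5 genes that mark or extract proteins for degradation did not pass in the reported fit, although Syvn1 and Sel1l did in 8 and 5 of the 18 alternatives. Both passed in DESeq2 (adjusted p = 0.0446 for Syvn1 and 0.0358 for Sel1l). Other edgeR fits were also among these, such as no composition factor for Syvn1 (0.00659) and DESeq2 size factors for Sel1l (0.0485). Syvn1 (Hrd1), the ubiquitin ligase of ERAD, was higher in all Rpl22-/- libraries (0.41; adjusted p = 0.076), whereas its partner Sel1l (-0.41; adjusted p = 0.0882) and the mannosidase-like Edem1 (-0.25; adjusted p = 0.235) were lower in all of them. Herpud1, whose upstream stretch holds both an ERSE-II and a CARE, and Derl1 overlapped between genotypes, at 0.37 and 0.02.

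Other genes of the same processes, listed by name and not for how they moved, gave the following. Of 22 further translocation genes (signal recognition particle, its receptor, translocon and signal peptidase), all had a positive log2 fold change, as did 54.2% of all genes, with a median of 0.35. In that list 1 was called, Srprb, the membrane anchor of the signal recognition particle receptor (1.10; adjusted p = 0.0143), 4 passed the adjusted p and 18 did not. Of 19 further ER folding genes tested, 7 passed on the higher side and 2 on the lower side (median 0.21). Rcn1, a calcium-binding protein of the ER (1.38), and Pdia5, an isomerase (1.29), were called higher. Prdx4, the peroxiredoxin of the ER, was called lower by a larger amount (-1.59; adjusted p = 0.00927). Of 20 further ERAD genes, 2 passed on the higher side and 1 on the lower side (median 0.06), the latter being Derl3 (-1.11; adjusted p = 0.0192), a relative of Derl1. Outside the chaperones themselves, the share that passed on the higher side was thus 18.2% of the translocation list, 36.8% of the folding list and 2 of 20 in the ERAD list, beside 13.7% of all genes.

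On the side of Atf4, the counts are to be read beside 8.93% called higher and 13.7% passed higher over all genes. Further genes of amino acid transport and synthesis had 3 that passed on the higher side and 1 on the lower side of 16 (median 0.28). The only called one, Cbs, stood below 0.6 CPM in every library. Of 14 further signalling targets tested, 3 were called higher. The 2 of these with the larger change were Stc2, a secreted glycoprotein (1.99; 0.708 to 0.797 CPM against 2.30 to 3.50 CPM), and Tnfrsf10b, a death receptor (1.81; 1.34 to 1.47 CPM against 4.76 to 5.19 CPM). Gdf15 had a larger estimate that did not pass (2.31; adjusted p = 0.208). Of 20 tRNA synthetases, many of which are Atf4 targets, 0 were called and 1 passed in each direction below 2-fold (median 0.08). At an unadjusted p under 0.05 in edgeR, 4 tRNA synthetases were higher and 1 lower, and DESeq2 and limma-voom also called 0 of them. Of 15 genes of eIF2, its exchange factor and its kinases and phosphatases, 1 passed in each direction below 2-fold, Eif2b3 on the higher side (0.96) and Eif2ak1, the heme-regulated kinase, on the lower side (-0.82).

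Chaperones of other compartments were higher in summed TPM without overlap, with few single genes that passed. Such a sum is not particular to chaperones, since those of the tRNA synthetases (815 to 853 TPM against 961 to 1023 TPM) and of the further ERAD genes (1076 to 1117 TPM against 1281 to 1407 TPM) did not overlap either, at medians of 0.08 and 0.06. Of 10 mitochondrial chaperones and proteases, all were positive (median 0.45) and in 6 every Rpl22-/- library was the higher, against 23.9% of all genes. Their sum was 317 ± 7.5 TPM in Rpl22+/+ and 452 ± 7.5 TPM in Rpl22-/- (SD, n = 3), and 2 passed on the higher side, below 2-fold. Of 16 cytosolic heat shock genes, 12 were positive (median 0.47), with sums of 2347 to 2576 TPM against 3902 to 5956 TPM, and 4 passed on the higher side, where the background is again 13.7% of all genes. Dnaja1, a partner of cytosolic Hsp70, was called (1.79; adjusted p = 0.0201), at 119, 56.9 and 131 CPM in Rpl22+/+ and 264, 264 and 533 CPM in Rpl22-/-. The genotypes were apart in Dnaja1, while the inducible Hspa1a named above overlapped.

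Markers of other cell types moved with genotype in some lists. Their called counts are to be read beside 8.93% called higher and 8.54% called lower over all genes. Plasma cells, which are rich in ER chaperones, gave marker sums of 8111 to 10354 TPM in Rpl22+/+ and 6962 to 10410 TPM in Rpl22-/-, which overlapped, and edgeR called 1 of 10 such markers, Derl3, which was lower, where DESeq2 called 2. Erythroid markers rose, with 7 of 8 called higher, and their sum went from 248 to 286 TPM in Rpl22+/+ to 1675 to 3059 TPM in Rpl22-/-. Of 9 T and NK cell markers 2 were called higher and 5 lower (sum 87.0 to 111 TPM against 41.4 to 56.4 TPM), and of 8 macrophage markers 4 were called higher and 2 lower (299 to 437 TPM against 169 to 251 TPM). B cell markers summed to 400.5 to 508 TPM against 289 to 393 TPM, and 1 of 8, Cr2, was called higher (1.77) while the other 7 had negative log2 fold changes. Megakaryocyte markers summed to 3.57 to 4.88 TPM in Rpl22+/+ and 4.96 to 5.21 TPM in Rpl22-/-. Stromal markers summed to 23.6 to 26.4 TPM against 33.4 to 39.1 TPM, without overlap. Of the 4 stromal markers tested, however, 3 had negative log2 fold changes (median -0.57), and 1 was called, Pdgfrb, lower and at 0 reads in all Rpl22-/- libraries. What part these cells, or the lower Ly6g and higher granule genes given above, have in the chaperone values was not tested.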

How the data were processed

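The authors made stranded libraries from poly(A) RNA for paired-end sequencing. Reads were trimmed by Trimmomatic and assigned to transcripts by Salmon, and per the labels the build was GRCm39. Versions and the transcript set are not given in the sources used here. The authors deposited, per library, estimated counts per transcript and TPM. A further table that the authors deposited gives a base mean signal per gene, used here for gene positions and as the authors' mean level, and their DESeq2 fold changes, p-values and test scores, which were not used. Estimated counts were summed to genes with GENCODE vM21 identifiers without versions and rounded. Of 276623 transcripts, 136036 (49.2%) matched, with 98.0% to 98.1% of reads. Ddit3 is paired with 2 identifiers there, and that with more reads was used. Total estimated reads were 70202750, 88483406 and 76256404 in Rpl22+/+ and 35828500, 99806050 and 102866127 in Rpl22-/-. No molecular identifiers are named, and reads are then not independent molecules.

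Genotypes, taken from the sample titles, were tested in edgeR 4.0.16 (R 4.3.3) by quasi-likelihood F tests on TMM-scaled counts after filterByExpr, with Benjamini-Hochberg adjustment over 16656 genes. Called genes had an adjusted p under 0.05 and a log2 fold change over 1 or under -1. The SE is that implied by the F statistic. Log2 CPM used a prior count of 2. The scripts were tested on simulated data. The 18 alternatives were other scalings (DESeq2 size factors, none), filters (none, a mean of at least 50 counts) and tests (DESeq2 1.42.0, limma-voom of limma 3.58.1), limma on log2(TPM + 1) and log2(TPM + 0.1), a length offset, a GC correction, the replicate block, both together, and each library left out. The members and lists were chosen with earlier results of these data known. Values per library are given for called members, for the sensors and factors and for Ddit3, and from other lists for at most the 2 called genes with the largest change. Itgam, Ly6g, the granule genes, the chaperones below 2-fold or not passed, Chac1, Ppp1r15a, Dnajb9, Atf3, Hspa1a, Gdf15, Eif2b3, Eif2ak1 and Pdgfrb were given values beyond this rule, after they were seen. Promoter windows are RefSeq's on GRCm38.p6. Windows of Atf6, Derl1, Hyou1, Manf and Slc7a5 were not analysed here. Figures were drawn with matplotlib 3.10.9.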

Additional observations from a re-analysis of the deposited data

How the results depend on the processing

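Asns and Slc7a11 were called lower, and Manf and Hyou1 higher, under all 18 alternatives, and the 2 members called lower, both Atf4 targets, stayed the only ones. The 6 members called higher became 11 with no composition factor and 10 on log2(TPM + 0.1), and ranged from 2 to 8 with 1 library left out, at 2 without Rpl22+/+ replicate 1 or 3. The 4 chaperones called higher became 8 with no composition factor and 7 on log2(TPM + 1) or log2(TPM + 0.1), and ranged from 2 to 5 with 1 library left out. The single Atf4 target called higher became 2 with no composition factor, no filter or log2(TPM + 0.1), and ranged from 0 (edgeR, without Rpl22+/+ replicate 1 or 3) to 2. In those fits with 0 calls, 3 Atf4 targets were higher at an unadjusted p under 0.05 in each. The chaperone median log2 fold change of 0.87 became 1.00 with no composition factor, 1.02 on both TPM scales and 0.65 with the ERAD and translocation members added, and ranged from 0.80 to 0.86 with 1 library left out. The median of all genes moved by 0.13 with no composition factor and by 0.12 on log2(TPM + 0.1), and relative to it the chaperone median was 0.81 and 0.83, against 0.80 in the reported fit. On log2(TPM + 1) the median of all genes moved by 0.04, and the relative chaperone median was 0.91. All 15 chaperones stayed above 0 except Dnajb9 without Rpl22-/- replicate 3 and in the replicate block with GC correction. The Atf4 target median of 0.08 has no steady sign. It was -0.0472 with limma-voom, -0.0396 with the replicate block, -0.0716 with the replicate block and GC correction, and -0.33 (without Rpl22-/- replicate 3) to 0.34 with 1 library left out, being -0.07 without Rpl22+/+ replicate 1. The causes were not tested. Of 31 members not called, 5 were called in some alternative (Hspa5, Pdia3, Pdia6, Creld2 and Chac1), and 4 changed sign without being called (Dnajb9, Ppp1r15a, Slc3a2 and Derl1).

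Replicate numbers are shared by both genotypes. Deviations from the genotype means of same-numbered libraries correlated at 0.479, 0.634 and 0.0974 over 16656 genes, and at 0.570, 0.715 and 0.129 over the 13202 genes that averaged 50 counts or more. Rpl22+/+ replicate 3 correlated better with Rpl22-/- replicate 1 than with its own number, so the numbers were not taken as a pairing. The replicate block left the calls as they were, at 6 members higher and 2 lower, 4 chaperones higher, and 1 Atf4 target higher and 2 lower. At any size, 10 chaperones passed in the reported fit, 11 with the block (Pdia4 added) and 14 with the block and GC correction. Low counts limit Trib3, Cbs, Stc2, Tnfrsf10b and Chac1, all below 6 CPM.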
